A study of Mus musculus with 3 samples.

Results

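Mature villus enterocytes of the mouse small intestine were studied, picked out by 6 genes of late enterocyte life: Slc5a12, Dnase1, Enpp7, Apoc3, Ace and Cyp4v3. Within each of 3 single-cell libraries the members were the top 8% of cells by the summed deposited values of these genes, among the cells kept after leaving out those rich in defensin (Defa) or Agr2 transcripts. This gave 250 members of 4106 cells in AOS 0, 176 of 3195 in B + A 0 and 330 of 5352 in B + A 10, or 756 of 12653 cells in all. The share was fixed by the rule, so the number of members is no finding. Where 3 values follow each other below, their order is AOS 0, then B + A 0, then B + A 10.

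All mice were male ICR mice, an outbred stock, and no transgene or deletion is described. They were 3 weeks old at the start of treatment, and cells were taken after the 2 weeks of gavage. AOS 0 mice received no busulfan and drank the vehicle, ddH2O, by oral gavage each day for 2 weeks. B + A 0 mice received a single injection of busulfan, an alkylating drug, at 40 mg/kg and then the same vehicle, and B + A 10 mice received the same busulfan and then alginate oligosaccharides (AOS) at 10 mg/kg by daily gavage. The cells of 6 mice were pooled into 1 library per group, so mice within a group cannot be told apart, no comparison between groups has a replicate check, and every interval below covers counting error only.

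Enterocytes are born in the crypt, move up the villus while they mature, and are shed at its tip. On the way they lose ribosomal and dividing-cell transcripts and gain the machinery of digestion and uptake: brush border hydrolases, transporters, and the proteins that rebuild absorbed fat into chylomicrons, the particles that carry it into lymph. Apoc3 (chr9:46232933-46235636, minus strand of GRCm38) encodes an apolipoprotein of these particles, and Enpp7 (chr11:118988188-118993221, plus strand) an alkaline sphingomyelinase of the brush border. Slc5a12 (chr2:110597298-110647779, plus strand) encodes a sodium-coupled monocarboxylate transporter, Ace (chr11:105967945-105989964, plus strand) a brush border dipeptidase, Dnase1 (chr16:4036942-4040024, plus strand) a secreted nuclease and Cyp4v3 (chr8:45304944-45333216, minus strand) a fatty acid hydroxylase. The libraries count the 3′ ends of exonic transcripts over each whole gene, and levels are given below as UMIs (unique molecular identifiers, single captured transcripts) per 10000 UMIs of the cells in question.

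The libraries differed in depth. Members had medians of 4541, 4624.5 and 2510 UMIs per cell, below the medians of the other kept cells, which were 7354.5, 6342.5 and 3487. The 3 library totals were 35258551, 26044381 and 23003083 UMIs. Of the cell barcodes, 17 were shared by AOS 0 and B + A 0, 34 by AOS 0 and B + A 10, and 31 by B + A 0 and B + A 10, and 0 of these belonged to members of both libraries.

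The cut fell on a smooth slope. The last cell inside and the first cell outside had summed natural-log values of 9.17 and 9.15 in AOS 0, 8.89 and 8.87 in B + A 0, and 9.29246 and 9.28527 in B + A 10. The median member scored 11.5, 10.9 and 11.1 in the 3 libraries, and the highest 18.0, 16.4 and 17.2, while the median of the other kept cells was 1.02, 1.73 and 1.76. All 6 genes were detected in 175 of the 756 members, 5 of them in 353, 4 in 213 and 3 in 15. Of the 8687 other kept cells, 5 had all 6 genes and 1977 had none.

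**Figure D1:**
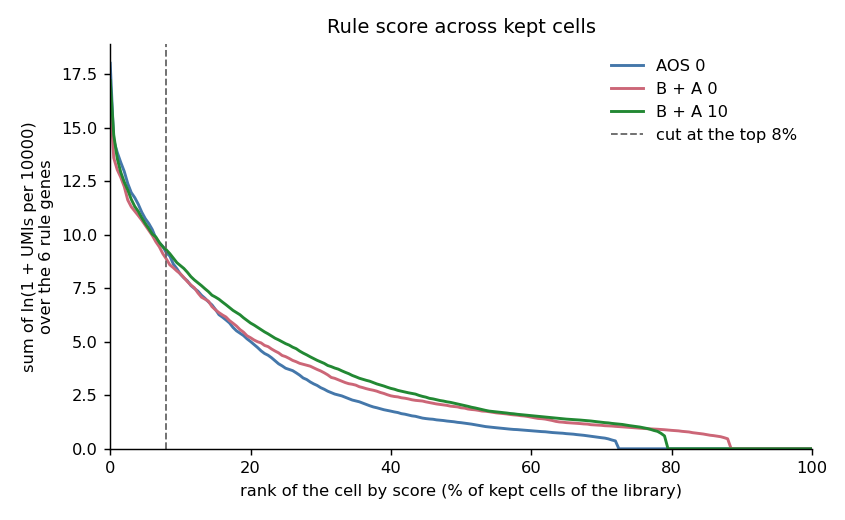
Sum of ln(1 + UMIs per 10000) over the 6 rule genes (y axis) against the rank of each kept cell within its library in percent (x axis), with 1 line per library and a dashed line at 8%. The curves bend gradually through the cut, near scores of 9.17, 8.89 and 9.29, with no gap between members and the next cells.

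Because the rule used these 6 genes, their levels are a description. Summed over the 6 genes, members held 86.2, 70.5 and 80.7 UMIs per 10000. The next-ranked 8% of kept cells held 38.8, 34.8 and 45.7, and a crypt set, the top 8% of kept cells by a list of stem cell genes, held 1.48, 2.34 and 2.87. Most of the sum was Apoc3, at 57.9, 44.3 and 50.2 in members. Slc5a12 stood at 3.10, 2.52 and 3.19, Enpp7 at 2.47, 2.24 and 3.02, and Dnase1 at 11.2, 11.2 and 11.6. Ace was at 5.24, 4.44 and 6.18 and Cyp4v3 at 6.28, 5.76 and 6.55. B + A 0 was the lowest library for 5 of the 6, all but Dnase1, and none of the 6 differed by 1.5-fold between any pair of libraries.

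Detection followed the same order of cell sets. After thinning each cell to 1000 UMIs, Apoc3 was seen in 97.6%, 97.2% and 95.2% of members, against 6.4%, 14.3% and 16.1% of crypt cells, which should lack it (unthinned, 100% of members in each library, with median depths of 4541, 4624.5 and 2510 UMIs in members and 6991.5, 6191 and 3540 in crypt cells). Dnase1 was seen in 60.8%, 66.5% and 65.8% of thinned members (unthinned 98.0%, 100% and 93.9%) and in 1.2%, 4.0% and 2.73% of thinned crypt cells. The crypt shares are read as background, and the step from crypt cells to members was set by the rule for both genes.

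**Figure D2:**
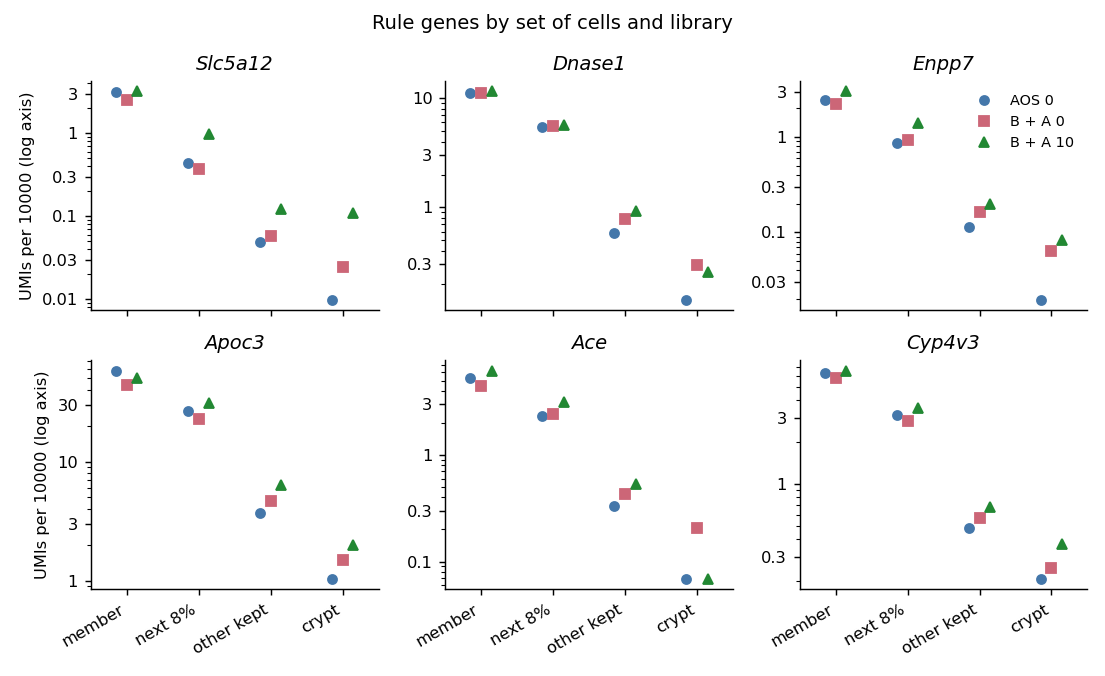
Level of each rule gene in UMIs per 10000 UMIs (log y axis, 1 panel per gene) in the members, the next-ranked 8%, all other kept cells and the crypt set, with 1 marker per library. Each gene stepped down from members to crypt cells in all 3 libraries, and the summed level of the 6 ran from 86.2, 70.5 and 80.7 in members to 1.48, 2.34 and 2.87 in crypt cells.

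The label matched the genes that the rule did not use, as a description, since the cells were selected on genes of the same program. Pooled over the libraries, and among genes with at least 1000 UMIs in members, the one furthest above the other kept cells was Fabp2, the intestinal fatty acid binding protein (chr3:122895072-122899506, plus strand), at 470 UMIs per 10000 against 45.2. Sepp1, the selenium carrier selenoprotein P, was at 24.9 against 2.45, Sectm1b at 4.21 against 0.439, and the antimicrobial peptide gene Leap2 at 9.20 against 0.981. Brush border enzymes followed: lactase (Lct) at 8.09 against 0.982, the endopeptidase Mme at 4.43 against 0.534, and the ceramidase Asah2 at 7.43 against 0.906. The apolipoproteins Apoa4, at 90.5 against 10.5, and Apoa1, at 371 against 45.9, and guanylin-family Guca2b, at 69.3 against 10.5, belonged to the same group.

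Among the genes with at least 1000 UMIs in members, a limit that leaves out genes they nearly lack, ribosomal genes filled all 12 lowest places against the other cells. Rps19 stood at 4.36 against 43.8. Next to them came the keratin Krt19, at 3.59 against 22.3, and Fabp6, the bile acid carrier of the ileum, at 11.6 against 68.0. Thinned to 1000 UMIs, members also held fewer different genes per cell, with medians of 546, 560.5 and 572 against 616, 606 and 603 in the other kept cells.

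Stem cell genes were close to absent: their summed level in members was 0.632, 1.77 and 1.43 UMIs per 10000, against 73.8, 63.6 and 58.2 in the crypt set. Dividing-cell genes were at 0.790, 1.49 and 1.26 against 23.4, 24.5 and 22.7. Tuft cell genes were at 0.0166, 0.0578 and 0.0338, with 4, 3 and 5 of 6 genes at 0 UMIs, and red blood cell genes gave 0, 1 and 0 UMIs in all. Enteroendocrine genes were at 2.66, 2.73 and 3.75 against 20.9, 14.8 and 19.6 in the other kept cells. The exceptions were the secretory genes described further on.

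Members were also set against enterocytes picked by genes of gut position or of another villus zone. The duodenal gene S100g, a calcium binding protein, stood at 1.5 in members against 32.7 in cells picked by Rbp2 and Adh6a, while Fabp2 was at 470 against 153 and Sepp1 at 24.9 against 5.34. Cells picked by the ileal genes Fabp6 and Slc10a2 held Fabp1, the liver-type fatty acid binding protein, at 6.05 against 223 in members, and Lct at 0.230 against 8.09. The same ileal cells held Saa1 at 6.76 against 0.0812 and Slc13a1, a sulfate transporter, at 5.46 against 0.632. Against cells picked by Ms4a18 and Il18, members held more Sepp1 (24.9 against 2.64) and Sgk1 (3.33 against 0.383) and less of the metallothioneins Mt1 (3.40 against 18.4) and Mt2 (0.345 against 4.06). Of the 756 members, 158 (20.9%) were also in the Rbp2 and Adh6a set, 33 (4.37%) in the Ms4a18 and Il18 set, and 4 (0.529%) in the Fabp6 and Slc10a2 set.

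A single score cut for all libraries let their shares differ. At a score of 9.18, 7.97% of kept AOS 0 cells (95% exact binomial interval 7.04 to 8.98), 7.41% of B + A 0 (6.35 to 8.58) and 8.33% of B + A 10 (7.50 to 9.21) passed. The differences between libraries were -0.56 percentage points for B + A 0 against AOS 0 (95% Newcombe interval -1.99 to 0.91), 0.92 for B + A 10 against B + A 0 (-0.50 to 2.27) and 0.36 for B + A 10 against AOS 0 (-0.93 to 1.62). The same passing cells were 6.06%, 5.10% and 6.41% of all cells, where the left-out cells entered the total only. On this total the difference of B + A 10 from B + A 0 was 1.31 percentage points (0.28 to 2.30). That difference also depends on how many cells were left out, and B + A 0 had the largest share of cells left out. In these shares the library and the treatment cannot be told apart.

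The groups were then compared within the members, gene by gene. Among 1983 genes with at least 200 UMIs over all members, 172 (8.67%) were past 1.5-fold higher in B + A 0 than in AOS 0 and 101 (5.09%) past 1.5-fold lower. For B + A 10, 76 (3.83%) were higher and 27 (1.36%) lower than in B + A 0, and 167 (8.42%) higher and 56 (2.82%) lower than in AOS 0. The gene lists below count genes from 50 UMIs upward, where the matching backgrounds over 4998 genes were 10.9% higher and 7.78% lower, 8.08% higher and 5.2% lower, and 11.4% higher and 5.94% lower. The median log2 ratio of those 4998 genes was 0.03, 0.04 and 0.07 in the 3 comparisons. The comparisons share libraries, so a value that is low in B + A 0 appears in 2 of them.

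**Figure D3:**
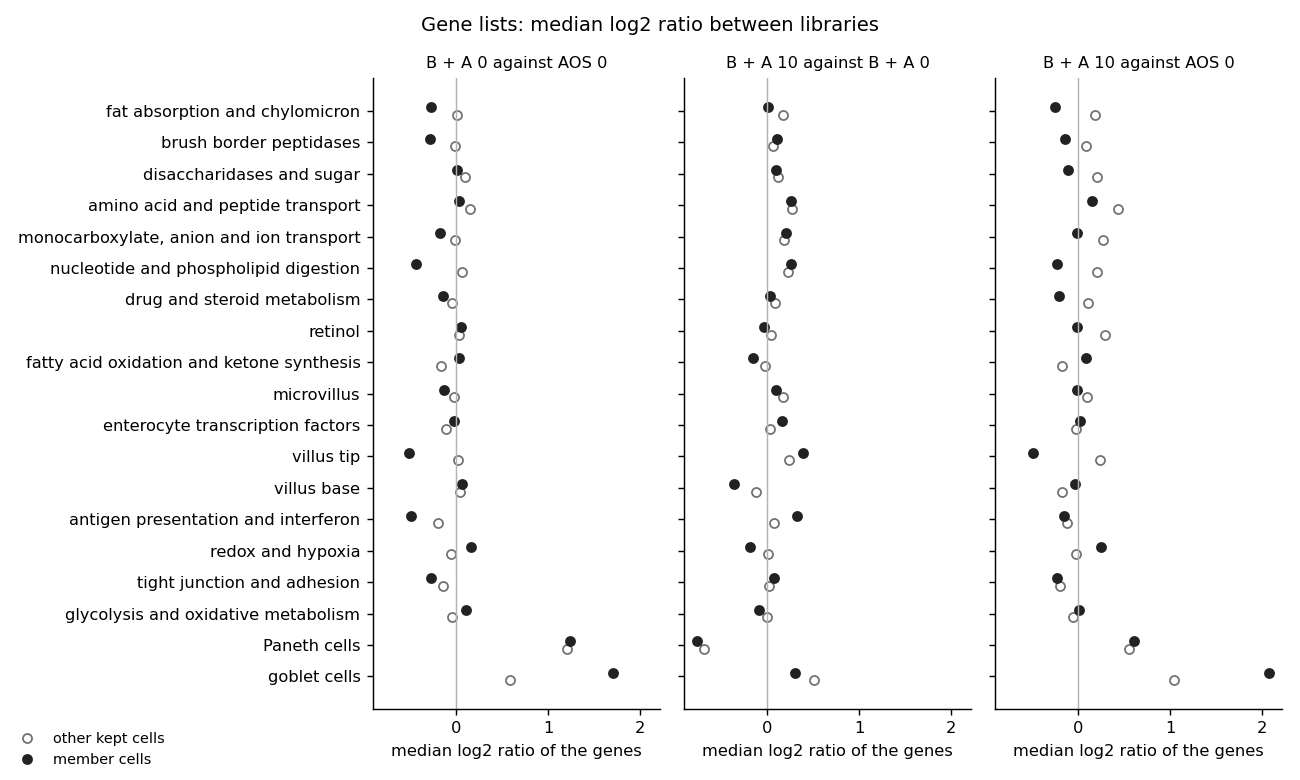
Median log2 ratio of the genes of 19 lists (rows) in the 3 comparisons between libraries (panels), with filled points for members and open points for the other kept cells. Most lists of enterocyte function sat within 0.5 of no difference, the goblet list of members lay furthest to the right (1.71 in B + A 0 against AOS 0), and the interferon list lay at -0.49 and then 0.32.

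Genes of fat absorption and chylomicron assembly had the highest summed level of the lists, and the sum was lower in both busulfan libraries. That level was 1464, 1160 and 1036 UMIs per 10000, against 157, 170 and 192 in the other kept cells and 32.8, 43.6 and 43.4 in crypt cells. Of 21 genes with enough UMIs, 18 had a ratio below 1 in B + A 0 against AOS 0, with a median log2 ratio of -0.27. Past 1.5-fold, 3 were lower and 1 higher. The median of B + A 10 against B + A 0 was 0.02, with 1 gene higher and 1 lower past 1.5-fold. Against AOS 0, B + A 10 had 2 genes lower and 1 higher past that size.

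Fabp2 was at 597, 421 and 344 UMIs per 10000. AOS 0 was the highest and B + A 10 the lowest, with log2 ratios of -0.50 for B + A 0 against AOS 0 (95% interval -0.52 to -0.49), -0.29 for B + A 10 against B + A 0 and -0.80 for B + A 10 against AOS 0. In the other kept cells it was nearly even across libraries, at 46.2, 44.0 and 45.0. Members of B + A 10 had the fewest UMIs per cell, and when members were chosen after thinning to equal depth the 3 log2 ratios were -0.58, -0.10 and -0.68.

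Apoa1, Apoa4 and Apob had their highest level in AOS 0, with the other libraries close together. Apoa1 was at 441, 330 and 318, and Apoa4 at 108, 80.6 and 76.9. Apob, the structural protein of the chylomicron, was at 16.2, 10.3 and 11.2, a log2 ratio of -0.66 in B + A 0 against AOS 0 (-0.77 to -0.54). Mttp, which loads lipid onto Apob, was at 24.1, 18.0 and 18.9, with a log2 ratio of -0.42 (-0.51 to -0.33).

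Npc1l1, the cholesterol uptake protein of the brush border, was at 5.70, 3.79 and 4.67, with B + A 10 between the others, and past 1.5-fold lower in B + A 0 than in AOS 0. Apobec1, the editor of Apob transcripts, was the other gene past that size, at 0.632, 0.381 and 0.473. Apoc2, the activator of lipoprotein lipase, went the other way at 0.141, 1.22 and 0.518, from 17, 106 and 46 UMIs. The fatty acid carrier Cd36 was the gene past 1.5-fold higher in B + A 10 than in B + A 0, at 0.923, 0.809 and 1.33.

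The enzymes that rebuild triglyceride were nearly even across libraries. Dgat1 was at 7.62, 7.61 and 8.52, Mogat2 at 4.77, 5.0 and 4.37, and the fatty acid transporter Slc27a4 at 8.57, 7.84 and 8.84. Fabp1 was at 216, 247 and 209, so that the liver-type and intestinal-type fatty acid binding proteins differed in their order of libraries. Soat2, which esterifies cholesterol, was lowest in B + A 10, at 1.75, 1.57 and 1.09.

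**Figure D4:**
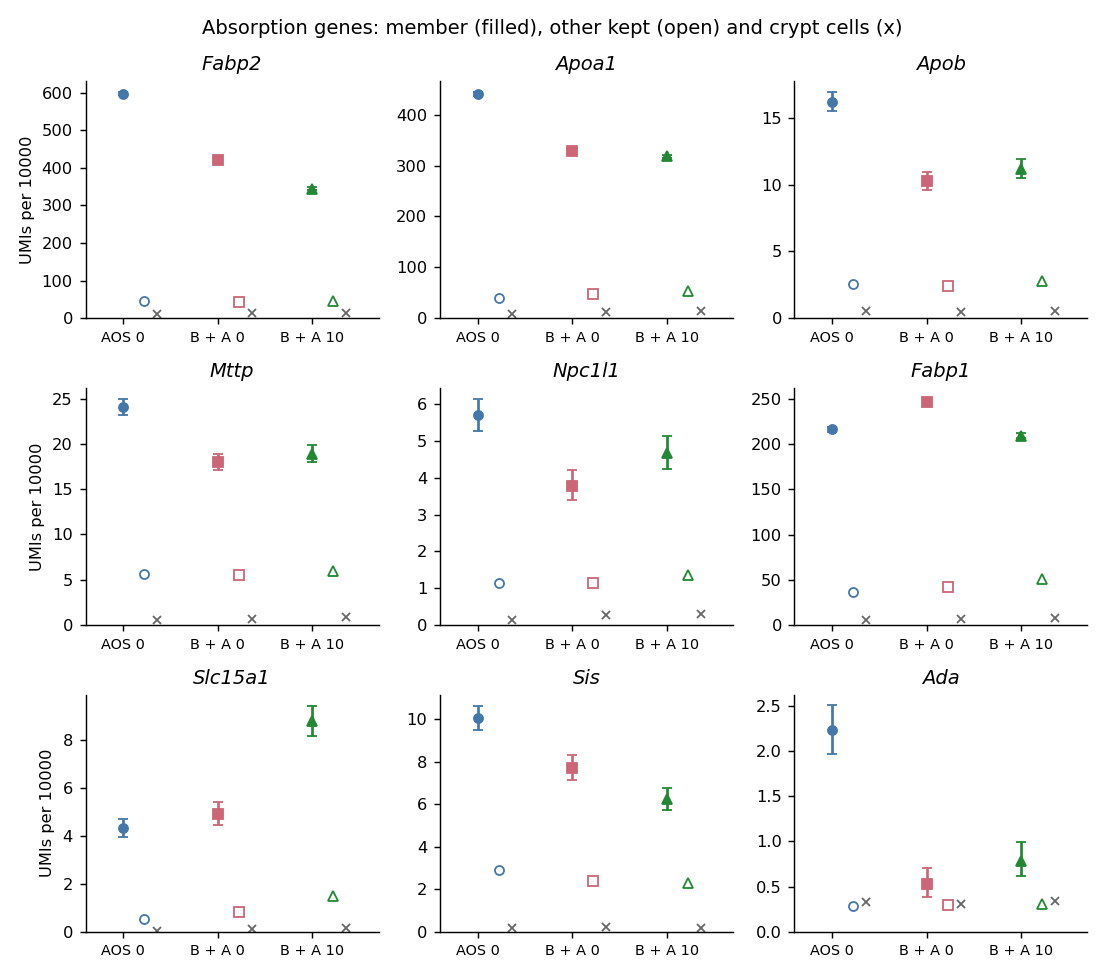
Level in UMIs per 10000 UMIs (linear y axis) of 9 genes of fat uptake, peptide uptake and digestion in members (filled, with 95% exact Poisson bars), other kept cells (open) and crypt cells (crosses) of the 3 libraries. Fabp2 in members stepped from 597 to 421 to 344, Slc15a1 from 4.34 to 4.92 to 8.79, and Ada from 2.23 to 0.531 to 0.788.

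Transporters of peptides and amino acids differed from fat absorption in their order. Slc15a1, the brush border uptake carrier for di- and tripeptides (chr14:121459621-121505252, minus strand), was at 4.34, 4.92 and 8.79. B + A 10 stood apart from both other libraries, with log2 ratios of 0.84 against B + A 0 (0.67 to 1.01) and 1.02 against AOS 0 (0.86 to 1.18). It was seen in 31.6%, 33.5% and 52.4% of thinned members (unthinned 77.6%, 83.0% and 84.5%). The other kept cells had the same order at lower levels, 0.521, 0.826 and 1.49, so the order of libraries was shared by both.

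Of the 10 genes in the amino acid and peptide list, 10 had a ratio above 1 in B + A 10 against B + A 0, with a median log2 ratio of 0.26, and 1, Slc15a1, was past 1.5-fold. None was past 1.5-fold in B + A 0 against AOS 0, where the median was 0.04. Slc6a19, the main neutral amino acid carrier, was at 6.16, 4.26 and 5.84. Slc7a8, a basolateral amino acid exchanger, was at 1.6, 2.09 and 2.52. In the other kept cells the list median was 0.28 in B + A 10 against B + A 0 and 0.15 in B + A 0 against AOS 0.

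Brush border peptidases showed small and even differences. Of 10 genes, 9 were below 1 in B + A 0 against AOS 0 (median log2 ratio -0.28) and 9 above 1 in B + A 10 against B + A 0 (0.11), with 0 past 1.5-fold in either. Anpep was at 30.6, 24.7 and 28.2, Enpep at 10.9, 9.59 and 11.3, and Dpp4 at 5.55, 4.03 and 4.18. In the other kept cells the list medians of these comparisons were -0.01 and 0.06.

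The sugar genes gave medians of 0.02, 0.09 and -0.11. Sis, sucrase-isomaltase, was the lowest in B + A 10, at 10.1, 7.73 and 6.24, which was past 1.5-fold lower than AOS 0. Lct, at 7.81, 7.90 and 8.66, and the sodium-glucose carrier Slc5a1, at 11.2, 11.9 and 12.8, were nearly level. Treh, the trehalase of the brush border, was past 1.5-fold lower in B + A 0 than in AOS 0, at 2.49, 1.63 and 1.86.

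Genes of the microvillus were lower in 13 of 15 cases in B + A 0 against AOS 0 and higher in 13 of 15 in B + A 10 against B + A 0, by small amounts, with medians of -0.13 and 0.10. Villin (Vil1), which bundles its actin, was at 14.9, 13.8 and 14.5, the motor protein Myo1a at 6.78, 6.20 and 7.41, and the protocadherin Cdhr2 at 8.43, 6.15 and 7.67. Tmigd1 was the one past 1.5-fold, at 1.48, 0.555 and 0.709. Pooled over the libraries, Tmigd1 stood at 9.90 in cells picked by the ileal genes Fabp6 and Slc10a2, against 0.977 in members. The part of ileal cells among the members in its difference was not tested. In the list of tight junction and adhesion genes, 18 of 20 were below 1 in B + A 0 against AOS 0, with a median of -0.27 and 4 past 1.5-fold: Cldn4, Tjp1, Dsc2 and Itga6. The adhesion protein Epcam was at 24.7, 16.8 and 16.3, the desmosomal cadherin Dsg2 at 1.83, 1.62 and 2.16, and the junction protein F11r at 1.40, 1.13 and 1.23. In the other kept cells the microvillus medians were -0.02 and 0.18, and the junction and adhesion median was -0.14.

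Several regulators and other genes named in the study's own text were too rare in members for a value: Atf5 had 9 UMIs over all members, Klf7 19, Sp2 23, Sox4 5, Zbtb1 8, Mrc1 2 and Gja4 0. Gata4, a regulator of proximal enterocytes, was at 0.515, 0.277 and 0.349, and Hmgb1 at 1.15, 1.36 and 1.33.

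Interferon-induced genes were at their lowest in B + A 0. Type I and III interferons act through the ISGF3 complex, which binds the interferon-stimulated response element in the promoters of genes such as Ifit1, Isg15 and Rsad2. The element was searched in RefSeq promoters of GRCm38.p6 as GAAA, any 2 bases and GAAA again, on both strands, after the values had been seen. It was found in 1131 of 32851 promoters of 300 bases (3.44%) and in 4 of the 7 interferon-induced genes that the table held, of 9 looked for. The 180 bases before the start of each of these 4 genes are shown 5′ to 3′ on the gene's strand, with the matches in capitals, because their members' values carry the result below. A match is a description of the letters only.
Ifit1, chr19:34640709-34640888, plus strand: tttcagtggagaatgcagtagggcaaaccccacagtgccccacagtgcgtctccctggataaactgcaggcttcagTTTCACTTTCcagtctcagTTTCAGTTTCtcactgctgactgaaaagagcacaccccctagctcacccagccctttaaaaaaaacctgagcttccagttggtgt
Isg15, chr4:156200819-156200998, minus strand: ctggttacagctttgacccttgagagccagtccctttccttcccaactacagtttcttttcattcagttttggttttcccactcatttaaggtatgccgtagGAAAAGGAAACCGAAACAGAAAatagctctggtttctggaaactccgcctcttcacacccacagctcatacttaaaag
Rsad2, chr12:26456453-26456632, minus strand: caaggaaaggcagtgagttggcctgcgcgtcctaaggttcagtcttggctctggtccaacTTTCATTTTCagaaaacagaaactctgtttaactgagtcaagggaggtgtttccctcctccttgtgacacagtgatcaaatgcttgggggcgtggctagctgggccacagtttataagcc
Ifit3, chr19:34583349-34583528, plus strand: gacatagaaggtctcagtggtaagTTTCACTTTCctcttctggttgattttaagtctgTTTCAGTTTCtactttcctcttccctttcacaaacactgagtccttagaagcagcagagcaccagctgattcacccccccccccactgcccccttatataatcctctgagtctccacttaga
The same letters were in 1 of 4 matched rule genes (Cyp4v3) and in 0 of 16 matched leading genes. The CDX motif TTTATNG was in 0 of 4 and 4 of 16 of these (2010106E10Rik, Fabp2, H2-Q2 and Ms4a10), against 10.9% of all promoters, and the GATA motif AGATAAG in 0 of 4 and 0 of 16, against 3.04%.

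Of 18 interferon and antigen presentation genes, 17 were below 1 in B + A 0 against AOS 0, with a median log2 ratio of -0.49 and 7 past 1.5-fold lower. Against B + A 0, 15 were above 1 in B + A 10, with a median of 0.32 and 4 past 1.5-fold higher: Isg15, Ifit1, Ifi27l2b and Oasl1. In the other kept cells the same medians were -0.20 and 0.08.

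Isg15, the ubiquitin-like modifier with 3 overlapping matches in its promoter, was at 16.8, 7.52 and 12.2 UMIs per 10000, with log2 ratios of -1.16 (-1.29 to -1.03) and 0.70 (0.56 to 0.84) in B + A 0 against AOS 0 and B + A 10 against B + A 0. Ifit1, which binds foreign RNA ends, was at 12, 5.90 and 10.7, and Rsad2, the antiviral enzyme viperin, at 3.56, 1.18 and 3.59. For these 3 genes B + A 0 was the lowest library, and for Rsad2 the other libraries were at nearly the same level. The other kept cells were flatter, at 6.70, 5.03 and 5.92 for Isg15, 2.71, 2.47 and 3.59 for Ifit1 and 0.587, 0.558 and 1.02 for Rsad2. Ifit3 was at 1.32, 0.670 and 0.912, and since genes of the Ifit family resemble each other, reads between them may be split.

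Further members of the response had the same order. Usp18, which removes Isg15 and damps the receptor, was at 2.29, 0.797 and 1.69, Oasl1 at 1.6, 0.832 and 1.45, and the ubiquitin-like Ubd at 2.96, 0.705 and 1.48. Ifit2 was at 1.21, 0.208 and 0.507. Counted per cell at 1000 UMIs, at least 1 UMI of a panel of 7 such genes was found in 89.6% of AOS 0 members (85.1 to 93.1), 73.3% of B + A 0 members (66.1 to 79.7) and 83.0% of B + A 10 members (78.5 to 86.9). At least 3 UMIs were found in 50.4%, 22.7% and 46.1%. The share with at least 1 was 55.1%, 49.9% and 58.1% in the other kept cells and 28.0%, 20.6% and 33.9% in crypt cells. Rsad2 was uneven among members, with 43.9%, 65.7% and 33.9% of its UMIs in 10 cells of each library. Isg15, with 17.6%, 21.7% and 12%, and Ifit1, with 19.7%, 25.4% and 13.9%, were spread over more of them.

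Ifi27l2b (chr12:103450898-103457223, minus strand), an interferon-induced gene of the mitochondrial Ifi27 family, had its own pattern. It was at 19.1, 7.65 and 42.6, lowest in B + A 0 and highest in B + A 10, with log2 ratios of -1.32, 2.48 and 1.16. At 1000 UMIs it was seen in 66.0%, 40.9% and 96.7% of members, 42.7%, 26.4% and 72.8% of other kept cells and 27.6%, 14.3% and 52.1% of crypt cells (unthinned, 88.8%, 79.0% and 100% of members). The other kept cells had nearly the same ratios at lower levels, 7.25, 3.62 and 17.1. The order of libraries was thus the same in members, other kept cells and crypt cells.

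Antigen presentation was highest in AOS 0. B2m, the light chain of class I molecules, was at 74.2, 56.1 and 54.9, H2-D1 at 36.3, 25.5 and 27.2, and H2-K1 at 21.7, 16.9 and 20.3. Cd74, the class II invariant chain, was at 14.7, 7.79 and 10.6. The class I gene H2-Bl stepped down through the libraries, at 2.57, 0.924 and 0.417, and its log2 ratio of -2.62 in B + A 10 against AOS 0 was close to that of the other kept cells, -2.09. Each library pooled other mice of an outbred stock, and the mice and the treatment cannot be told apart.

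**Figure D5:**
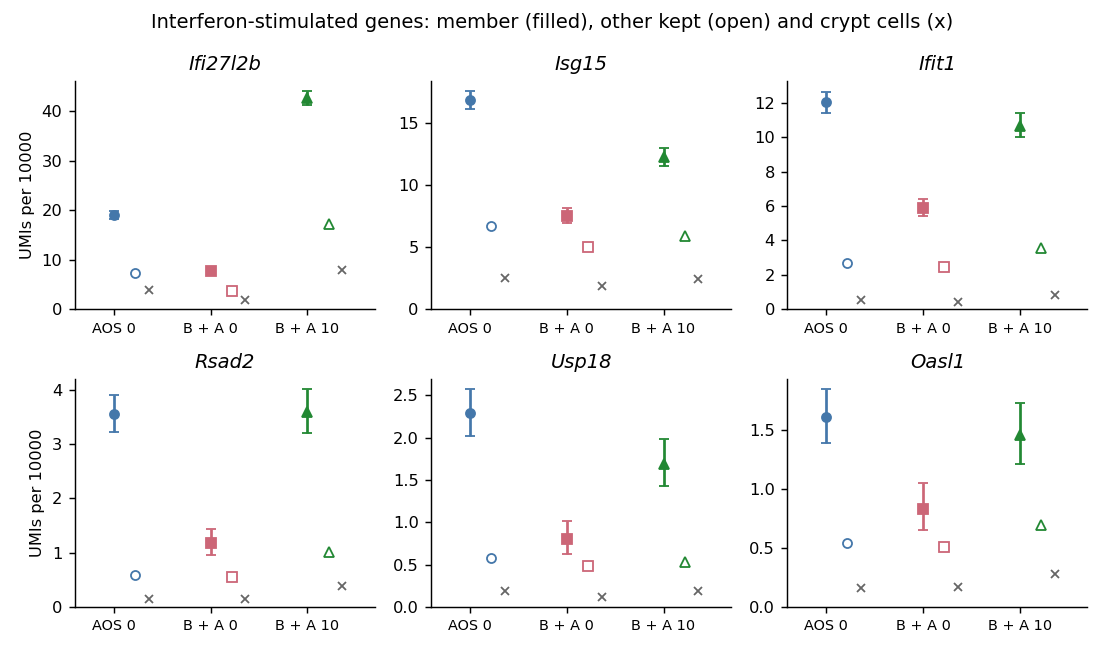
Level in UMIs per 10000 UMIs (linear y axis) of 6 interferon-induced genes in members (filled, with 95% exact Poisson bars), other kept cells (open) and crypt cells (crosses) of the 3 libraries. Isg15 (16.8, 7.52 and 12.2), Ifit1, Rsad2, Usp18 and Oasl1 were lowest in the B + A 0 members, and Ifi27l2b was highest in B + A 10 (42.6).

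Genes of the villus tip were highest in AOS 0 as a sum. All 7 measured genes of that list had a ratio below 1 in B + A 0 against AOS 0, with a median log2 ratio of -0.51, which was -0.37 without the 10% of members highest in tip genes in each library. In the other kept cells the list median of the same comparison was 0.03. Summed in members, the list was at 121, 88.7 and 87.2 UMIs per 10000. Most of this sum was Apoa4, whose levels are given above with the fat absorption genes. Ada, adenosine deaminase (chr2:163726584-163750239, minus strand), was at 2.23, 0.531 and 0.788, a log2 ratio of -2.07 in B + A 0 against AOS 0, but 218 of its 268 UMIs in AOS 0 (81.3%) came from 10 cells. Without the same tip-rich 10% the log2 ratio of Ada was -0.02, and with members at the top 5% it was -0.38.

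Clca4a and 2010109I03Rik were also found in few cells. Clca4a was at 1.80, 0.289 and 0.417, with 216, 25 and 37 UMIs in 28, 7 and 12 cells. Its log2 ratio in B + A 0 against AOS 0 went from -2.64 to -3.72 without the tip-rich 10%, but to -1.16 with members at the top 5%. In B + A 10 against B + A 0 it went from 0.53 to -0.32 with the top 5%. The other gene, 2010109I03Rik, was at 2.07, 0.231 and 0.586, with 94.0% of its AOS 0 UMIs in 10 cells. Reads of Clca4a can be shared with its close copy Clca4b, which was at 12.4, 7.16 and 8.40. Klf4, a factor of late differentiation, was found in more cells, 172, 87 and 149, at 3.08, 1.69 and 2.61, and its log2 ratios of -0.87 and 0.63 in B + A 0 against AOS 0 and B + A 10 against B + A 0 became -0.91 and 0.65 without the tip-rich 10%. At 1 score cut for all libraries, 44.0% of AOS 0 members (37.8 to 50.4), 28.4% of B + A 0 (21.9 to 35.7) and 27.9% of B + A 10 (23.1 to 33.1) were tip-high, and 41.6%, 26.1% and 31.8% after thinning.

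Members themselves were graded along this axis. They were split by the tip list into 3 equal groups within each library, and the highest 83, 58 and 110 cells were set against the lowest. Among 1977 genes outside the list with at least 200 UMIs, 21 (1.06%) were past 1.5-fold higher in the tip-high cells of every library and 26 (1.32%) lower. Median depth was close, at 4430 against 4583, 4502.5 against 4680.5 and 2456.5 against 2588.5 UMIs.

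The cytochrome Cyp3a11 was at 5.81 against 0.85 in AOS 0, 3.38 against 1.17 in B + A 0 and 3.80 against 1.48 in B + A 10. The myelin protein gene Pmp22 was at 4.73 against 0.26, 1.40 against 0.10 and 1.63 against 0.13. Pck1, of gluconeogenesis, was at 1.49 against 0.33, 1.22 against 0.72 and 1.80 against 0.67. All 3 were higher in the tip-high cells of each library, but the ranking took only genes on the same side of 1 in every library.

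Rsad2 was graded in AOS 0, at 6.30 against 1.06, and in B + A 10, at 6.04 against 2.12, and was at 1.22 against 1.03 in B + A 0; the difference between these gradients was not tested. Fabp6 was lower in tip-high cells, at 10.3 against 19.0, 5.82 against 11 and 6.14 against 22. The ribosomal Rplp0 was also lower, at 1.81 against 5.68, 3.52 against 7.52 and 3.15 against 4.88. Apoc3, a rule gene, was at 78.6 against 42.3, 61.1 against 31.4 and 63.2 against 41.0.

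In nucleotide and phospholipid handling, 4 of 11 genes were past 1.5-fold lower in B + A 0 than in AOS 0: Ada, Slc28a2, a nucleoside carrier, Enpp3 and Plb1, with a list median of -0.43. All 11 were above 1 in B + A 10 against B + A 0, with a median of 0.27. In the other kept cells the list medians of these comparisons were 0.07 and 0.23. Ada and Slc28a2 are also on the villus tip list, so they count in both lists. In members Slc28a2 rested on 39, 8 and 13 UMIs, with 35 of the 39 in 10 cells, and Ada in AOS 0 also lay mostly in 10 cells, as given above. Drug and xenobiotic genes were nearly level as a list (-0.14, 0.04 and -0.21 over 21 genes). Within it, the sulfotransferase Sult1b1 was at 11.7, 8.87 and 6.67, and the glutathione transferase Gstm3, which has close copies, at 1.66, 4.17 and 2.15.

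Lists of damage and stress genes bear on a comparison with an alkylating drug. Cells were taken after the 2 weeks of gavage that followed busulfan, so earlier changes were not sampled. Of 17 listed targets of p53, the factor that answers DNA damage, 8 had enough UMIs and the others were too rare for a value. Of the 8, 0 were past 1.5-fold in B + A 0 against AOS 0, with a median log2 ratio of -0.16. Cdkn1a, the cell cycle inhibitor target of p53, was at 2.93, 2.16 and 2.45. The pro-apoptotic Bax was at 0.374, 0.531 and 0.529. Ccng1 was past 1.5-fold lower in B + A 10 than in B + A 0, at 0.266, 0.358 and 0.214. In the list of immediate early and heat shock genes (11 genes, medians -0.17, 0.20 and 0.06), 3 were past 1.5-fold higher and 1 lower in B + A 0 against AOS 0, and 3 higher and 2 lower in B + A 10 against AOS 0. Either way, the shares over all 4998 genes were 18.7% and 17.4%. The chaperones Hspa8 and Hsph1 and the early gene Ier2 were the higher ones in both, and Atf3, at 0.407, 0.127 and 0.0901, was lower in both, joined by Junb in B + A 10.

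Redox genes were above 1 in 10 of 11 cases in B + A 0 against AOS 0, with a median of 0.16. The peroxidase Gpx1 was at 2.14, 3.47 and 2.79 and past 1.5-fold, as was Nqo1 on few UMIs. Sod1, superoxide dismutase, stepped up to B + A 10, at 2.14, 2.99 and 3.48. Glycolysis and oxidative metabolism had 0 of 14 genes past 1.5-fold in any comparison, with medians of 0.11, -0.08 and 0.01. Fatty acid oxidation was similar (medians 0.04, -0.15 and 0.09 over 11 genes), with Cpt1a alone past that size. Retinol handling gave 0.06, -0.04 and -0.01 over 5 genes, and Rbp2, the retinol carrier of enterocytes, was at 173, 180 and 157. Lrat was the 1 retinol gene past 1.5-fold, lower in both B + A 0 and B + A 10 than in AOS 0.

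Transcription factors of enterocytes had medians of -0.02, 0.16 and 0.02 over 17 genes. Past 1.5-fold in B + A 0 against AOS 0, Gata4 and Klf4 were lower and Nr1h4 was higher, where 18.7% of all 4998 genes were past it either way. Klf4 and Tcf7l2 were past 1.5-fold higher in B + A 10 than in B + A 0, and 0 were lower. Hnf4a, which keeps enterocytes differentiated, was at 2.04, 1.43 and 1.62, Maf at 4.23, 3.42 and 5.01, and Creb3l3, a regulator of lipid genes, at 4.87, 3.42 and 4.27, each lowest in B + A 0 and none past 1.5-fold against AOS 0. Tcf7l2, the Wnt pathway factor, was at 1.11, 1.10 and 1.71. Among 13 carriers of monocarboxylates, anions and ions, the list of the rule gene Slc5a12, the medians were -0.18, 0.20 and -0.01. The phosphate carrier Slc34a2 was at 3.46, 2.16 and 2.75, the sulfate carrier Slc13a1 at 0.798, 0.416 and 0.619, and the dicarboxylate carrier Slc13a2 at 1.37, 1.21 and 1.85.

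Genes of other places gave mixed values. The duodenal list had medians of -0.35, 0.31 and -0.10 over 6 genes, with the iron oxidase Heph at 2.08, 1.29 and 1.52, and the ileal list -0.18, 0.19 and -0.24 over 5. The villus base list gave 0.07, -0.36 and -0.04 over 8 genes, with the cytokine Il18 at 0.640, 1.10 and 0.664 and the antimicrobial lectin Reg3a at 5.05, 8.23 and 6.20. In the other kept cells Reg3a stood at 3.73, 3.11 and 3.34, with no library past 1.5-fold.

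Some genes outside the absorptive lists differed more, and did so alike in other cells. Gstp1, a glutathione transferase, was at 0.815, 3.34 and 3.06, and its log2 ratio in B + A 0 against AOS 0 was 2.04 in members and 1.95 in the other kept cells. The chaperone Hspa8 was at 2.56, 4.24 and 5.79, with 0.73 and 0.81. Stx6, a trafficking protein, was low in B + A 10, at 1.78, 1.51 and 0.619, with a log2 ratio against B + A 0 of -1.29 in members and -1.34 in the others. For these 3 genes the differences were of like size inside and outside the members.

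Fabp6 in members was at 14.5, 7.49 and 11.6, and 74.6% of its AOS 0 UMIs lay in 10 cells. With members at the top 5% its log2 ratio in B + A 0 against AOS 0 went from -0.95 to -0.10. In B + A 10 against AOS 0 it went from -0.31 to 0.76. The duodenal S100g was at 0.931, 1.43 and 2.34, and in the other kept cells it had the same order, at 3.35, 6.15 and 7.69. The antimicrobial lectins Reg3b and Reg3g were at 327, 314 and 243 and at 238, 230 and 181, with Reg3b at 294, 301 and 239 in the other kept cells. The composition of the libraries along the gut was not tested as a part of the differences above.

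Secretory transcripts were found in members of every library and at higher levels in both busulfan libraries. All 7 goblet cell genes were past 1.5-fold higher in B + A 0 than in AOS 0 (median log2 ratio 1.71) and in B + A 10 than in AOS 0 (2.08). The summed level of the 7 goblet genes was 32.4, 101 and 131 in members, 59.5, 91.2 and 129 in the other kept cells and 21.2, 49.4 and 64.7 in crypt cells, with 0 of 7 genes at 0. Tff3, the trefoil peptide of mucus, was at 12.1, 37.7 and 51.2, the lectin Zg16 at 12.2, 36.2 and 48.2, and the mucin Muc2 at 1.26, 4.19 and 5.42. The 10% of members richest in these genes held 45.7%, 54.4% and 62.5% of the goblet UMIs after thinning, and without it the list medians were 1.31 and 1.17 against AOS 0.

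Paneth cell genes were also higher as a sum in both busulfan libraries, at 28.4, 57.2 and 45.8 in members, 25.4, 59.3 and 42.7 in the other kept cells and 35.9, 62.1 and 54.8 in crypt cells, with 6 of 7 past 1.5-fold higher in B + A 0 than in AOS 0 and 0 at 0. In B + A 10 against B + A 0 their median log2 ratio was -0.76, with 4 of 7 past 1.5-fold lower. The goblet median of that comparison was 0.31, with 0 lower. In the other kept cells the 2 medians were -0.68 and 0.51. Among the Paneth genes Defa24, one of many near-identical defensin genes, was at 18.3, 34.7 and 27.8 and lysozyme (Lyz1) at 1.76, 4.88 and 2.42. The rule also capped Defa17, Defa24 and Defa30 in all kept cells, through its limit on the Defa sum. T cell genes were at 2.54, 5.59 and 4.63 in members, 6.39, 6.57 and 9.60 in the other kept cells and 2.93, 4.58 and 3.91 in crypt cells, again with 0 at 0. The part of these transcripts in the other differences between libraries was not tested.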

How the data were processed

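Cells of the small intestine were profiled on the 10x Chromium 3′ platform (version 2 chemistry), and the authors processed reads with Cell Ranger 2.2.0 against mm10 with forced cell numbers, removed cells with fewer than 200 genes and genes found in fewer than 3 cells, and log-normalised the rest. The deposited table holds natural log values, ln(1 + UMIs per 10000 UMIs of the cell), for 13891 genes and 12653 cells. Each value was turned back into UMIs, and 24333763 of 24333763 (100%) came out whole within 0.01. It holds 0 mitochondrial genes. B + A 10 has 5352 cells, more than the forced number that the methods state for each library, and the reason is not given in the sources used here.

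Groups followed the treatment labels and titles, with which the source names of both busulfan samples disagree. Cells with Defa at 1500 or more, or Agr2 at 30 or more, UMIs per 10000 were left out (982, 995 and 1233 cells), and the top 8% of the rest by the 6 genes were members. The members and gene lists were chosen with earlier results of these data known. Levels were sums of UMIs with exact Poisson intervals, shares had exact Clopper-Pearson intervals, ratios exact binomial intervals and differences of shares Newcombe intervals, all at 95% and for counting error only. With 1 library per group no test was made. A gene was called past 1.5-fold from 200 UMIs over all members, or 50 within lists. For detection, cells were thinned once to 1000 UMIs. Named genes were the 6 of the rule, the 20 furthest above the other kept cells among genes with at least 1000 UMIs in members, in each list up to 5 with most UMIs and any past 1.5-fold, the 8 largest and 8 smallest ratios of each comparison and of the tip grading, and those of the study's text. The lowest genes and those set against other enterocytes were taken by the same kind of ranking, outside this rule. In the tip grading, only genes with a ratio on the same side of 1 in every library were ranked. Sets of other enterocytes and of crypt cells were the top 8% by their own genes. Doublets were scored with scanpy 1.11.5: the automatic threshold called 18 cells and had not worked, so no cell was removed and the highest 5% (633 cells) were left out as an alternative. Python 3.11.15, numpy 2.4.6, scipy 1.17.1, pandas 2.3.3 and matplotlib 3.10.9 were used, and the calculations were tested on simulated data. Gene coordinates are those of GENCODE vM21 and promoters those of RefSeq.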

Additional observations from a re-analysis of the deposited data

How the results depend on the processing

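No paired analysis was possible because each group was 1 library. All ratios rest on 1 library each, so their sizes are values with no test, and leaving out a replicate was not possible. Leaving out the 10% of members highest in goblet genes, or in tip genes, was chosen after seeing the data. Choosing members on cells thinned to 1000 UMIs kept 525 (69.4%) of the 756.

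Genes past 1.5-fold higher and lower in B + A 0 against AOS 0 numbered 48 and 15 with a minimum of 1000 UMIs and 545 and 389 with 50, and 56 were lower with the top 5% of cells. In B + A 10 against B + A 0 the counts were 6 and 0 with 1000 UMIs and 404 and 260 with 50, with 49 higher for the top 5% and 65 lower for thinned members. In B + A 10 against AOS 0 they were 40 and 9 with 1000 UMIs and 572 and 297 with 50, with 103 higher for thinned members.

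Of the list medians, 900 lay between the medians of the genes' lower and upper counting limits, 22 moved and 2 reversed. The goblet median in B + A 0 against AOS 0 was 1.95 with thinned members and 1.31 without the goblet-rich 10%. In B + A 10 against B + A 0 it was 0.59 with the top 5%, 0.59 without likely doublets, -0.14 without the goblet-rich 10% and 0.11 without the tip-rich 10%. In B + A 10 against AOS 0 it was 2.38 thinned, 2.47 with the top 5%, 2.28 without likely doublets, 1.17 without the goblet-rich 10% and 1.80 as a mean of cells. The stem cell median in B + A 10 against B + A 0 was -0.99 thinned, -0.72 with the top 12% and -0.50 over all genes with a UMI, and 0.087 thinned in B + A 10 against AOS 0. The dividing-cell median in B + A 10 against AOS 0 reversed to -0.070 thinned and -0.12 with the top 12%. Enteroendocrine medians were 2.44 in B + A 0 against AOS 0 and -1.62 in B + A 10 against B + A 0, both thinned. The villus tip median was -0.37 without the tip-rich 10% in B + A 0 against AOS 0 and -0.54 with median-of-ratios scaling in B + A 10 against AOS 0. The villus base median in B + A 10 against B + A 0 was -0.39 without likely doublets and -0.39 with median-of-ratios scaling, and the retinol median in B + A 0 against AOS 0 was 0.32 over all genes with a UMI.

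Single genes reversed in 5 cases: Ada in B + A 10 against AOS 0 (0.33 without the tip-rich 10%), Fabp6 in B + A 10 against B + A 0 (-0.054 thinned), Sct (-1.42 thinned) and Cck (-1.83 thinned and -0.80 without likely doublets). Other ratios counted as moved also changed sign with the top 5%, among them Fabp6 in B + A 10 against AOS 0 (0.76) and Clca4a in B + A 10 against B + A 0 (-0.32). The cause was not tested. Shares at 1 score were 5.28%, 4.73% and 4.93% with the cut of the top 5% and 9.32% for B + A 10 thinned. Genes graded with the tip list numbered 11 higher and 6 lower between 2 equal groups of members, and 13 lower in thinned members. The share of members also in the Ms4a18 and Il18 set was 7.80% thinned. The depth of B + A 10 limits its lowest genes.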
